A study of Mus musculus with 15 samples.

Results

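Mitotic spindle, kinetochore and cytokinesis genes were followed in mouse embryonic fibroblasts that lacked telomerase RNA and the Wrn helicase and carried either wild-type or mutant p53. The set holds 50 genes, chosen by symbol for their known part in cell division, of 54495 genes in the deposited table. All 50 symbols were found and all 50 passed the filter for testing, FPKM values of 1 or more in 2 or more libraries out of 15. FPKM is the number of fragments per kilobase of gene length, scaled for library size. The cells came from e13.5 embryos and were kept at 37 °C under 3% O2 and 5% CO2, in DMEM to which 10% FBS had been added, and polyA RNA was sequenced. Every culture was mTR-/- and Wrn-/-, the controls included. DM cells carried wild-type p53 (p53WT), and TM cells carried p53N236S on both alleles (p53N236S/N236S). G1, G3 and G5 are generations of mice bred without telomerase. The groups were G1DM, G1TM and G3DM with 2 libraries each, and G3TM, G5DM and G5TM with 3 each. The number of embryos behind a library is unknown here, so p-values measure the spread between these libraries, which may be technical in part. In G1DM and G5DM the sex-linked genes Xist and Ddx3y differed between libraries, as given below, so the spread there was not only technical. No group of the 15 libraries had intact telomerase or Wrn, and the wild-type and p53S control cells that the design text names are not analysed here. In bulk RNA, fewer dividing cells and less RNA per dividing cell cannot be told apart.

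Entry into mitosis is driven by the kinase Cdk1 with B-type cyclins, and exit by the anaphase-promoting complex, a ubiquitin ligase that destroys cyclin B and securin. Between these steps, kinetochores on the centromeres attach chromosomes to spindle microtubules, a checkpoint holds anaphase until attachment is complete, kinesin motors shape the spindle, and the midzone and contractile ring divide the cell. Most of these genes are transcribed late in the cell cycle. Their promoters often carry a cell cycle genes homology region (CHR), which the DREAM complex binds to repress them in resting cells and the MMB complex with FOXM1 binds to activate them before mitosis, together with CCAAT boxes bound by NF-Y. Wild-type p53 lowers their transcription through its target Cdkn1a, whose product p21 keeps DREAM assembled. The series title names DREAM and MMB as the regulators the study was about.

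The promoter letters that CHR and CCAAT stand for are shown for 4 members, a pair that rose with mutant p53 in both late generations (Cdc20 and Ccnb2) and a pair that did not in G5 (Kif11 and Mki67). The windows run from 150 to 11 bases before the transcription start in RefSeq (build GRCm38.p6), 5′ to 3′ on the strand of the gene, and overlap no annotated exon. Capitals mark TTTGAA or TTTAAA (CHR forms) and CCAAT on either strand, so that TTCAAA and ATTGG are the same motifs read from the other strand.
Cdc20 chr4:118437354-118437493, minus strand: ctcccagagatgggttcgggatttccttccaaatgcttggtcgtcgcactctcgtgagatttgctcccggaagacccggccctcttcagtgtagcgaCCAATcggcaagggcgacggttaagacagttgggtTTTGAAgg
Ccnb2 chr9:70421565-70421704, minus strand: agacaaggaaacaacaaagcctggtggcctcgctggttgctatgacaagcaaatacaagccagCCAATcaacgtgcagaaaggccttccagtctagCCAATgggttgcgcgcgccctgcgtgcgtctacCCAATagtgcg
Kif11 chr19:37376232-37376371, plus strand: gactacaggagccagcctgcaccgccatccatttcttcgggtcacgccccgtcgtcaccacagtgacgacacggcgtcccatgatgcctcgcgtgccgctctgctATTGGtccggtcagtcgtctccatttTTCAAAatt
Mki67 chr7:135716390-135716529, minus strand: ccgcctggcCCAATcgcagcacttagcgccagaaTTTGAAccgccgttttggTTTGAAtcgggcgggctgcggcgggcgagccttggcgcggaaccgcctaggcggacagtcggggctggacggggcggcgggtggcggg
Cdc20, Kif11 and Mki67 held a CHR form in this stretch, and Ccnb2 held CCAAT only. The stretch ends 11 bases before the start, so a CHR form closer to the start would not be seen in it. RefSeq gave windows of 250 bases before to 50 after the start for 43 of the 50 members. TTTGAA was found in 30 of the 43 (69.8%) and in 20.2% of 27025 genes with such windows. TTTAAA was found in 23.3% and 14.9%, and CCAAT, searched separately, in 76.7% and 41.1%. At least 1 CHR form together with at least 1 CCAAT stood in 28 of the 43 (65.1%) against 12.2% of all genes. Within 50 bases of the start, a CHR form stood in 69.8% of these members and 9.54% of all genes. A match describes letters in a window and is not a measured binding site.

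The libraries held 17448588 to 29571111 reads in genes, recovered from the FPKM values, and the least covered member of a library had from 40 reads (Ttk in G3DM replicate 1) to 610. All late TM libraries (G3TM and G5TM, 6 in number) were set off from the remaining 9 in genes unrelated to mitosis, picked out after their values were seen. Rrp1 measured 73.5 to 102 FPKM in the late TM libraries against 0.780 to 1.67 elsewhere, and Rpl12 300.4 to 609.7 against 3.84 to 6.77. Each TM against DM comparison in G3 and G5 spans this division, and no such comparison can be made without it, while the G1 genotypes, and DM cells of all generations, fall among the 9. In G3 the DM libraries expressed Xist (3.04 to 3.36 FPKM) and no Ddx3y, and the TM libraries Ddx3y (0.836 to 1.42) and no Xist, so in G3 an effect of genotype cannot be told apart from one of sex. The sexes were also unevenly mixed elsewhere: Ddx3y ran from 0 to 4.44 FPKM in G1DM and was at 0 in both G1TM libraries, and it ran from 0 to 16.6 in G5DM and from 0 to 0.954 in G5TM. Xist ran from 0.00475 to 28.6 FPKM in G1DM, 18.1 to 26.9 in G1TM, 0.00967 to 4.88 in G5DM and 0 to 3.61 in G5TM. All 12 fibroblast markers measured at least 1 FPKM in every library of 5 groups and 10 of 12 did in G3TM, but their summed levels were lower in late TM cells, at 3813 to 4859 FPKM in G3TM against 5043 to 6525 in G3DM, and 3243 to 3600 in G5TM against 4179 to 4374 in G5DM. Of the 12, 3 fell in TM against DM in G3 and 6 in G5, with medians of −0.80 and −0.60, and 8 fell from G1 to G5 in TM. Of all genes tested, 13.9%, 28.4% and 23.5% fell in these comparisons. Markers of other cells also differed between groups. The 6 neural markers summed to 94.8 to 253 FPKM in G3TM, 85.7 to 132 in G5TM, and 15.2 to 50.4 in the other 4 groups together. The 9 skeletal muscle markers summed to 20.9 to 319 FPKM in G3TM and 79.4 to 163 in G3DM, and the 7 macrophage markers to 6.91 to 282 and 24.6 to 26.6, so that the G3TM libraries lay on both sides of G3DM. In G5 the genotypes did not overlap in cartilage markers (24.0 to 47.6 FPKM in DM, 105 to 261 in TM), epithelial markers (3.71 to 5.23 and 19.1 to 49.6) or endothelial markers (6.26 to 7.25 and 1.71 to 3.66). Skeletal muscle markers were also apart in G5 (14.7 to 29.1 FPKM in DM, 29.9 to 107 in TM). In G3 endothelial markers were apart, at 5.99 FPKM or more in DM and 5.86 or less in TM. Cartilage markers in G1 (59.99 to 82.5 FPKM in DM, 26.5 to 31.9 in TM) were apart in the direction opposite to G5. So were skeletal muscle (18.95 to 38.9 and 11.5 to 13.9) and endothelial markers (4.59 to 4.88 and 7.83 to 8.99) in G1. Neural markers in G1 were apart in the same direction as in G5 (26.9 to 32.1 and 33.4 to 46.2). These ranges are sums over a list, and the median differences of the genes tested did not always follow them. For the 3 neural markers tested that median was −0.16 in G1, where none passed, and 1.44 in G5, where 2 rose (30.3% of all genes rose). For the 4 endothelial markers tested it was −0.06 in G1, where 1 rose (0.361% of all genes rose). None of the 6 skeletal muscle markers tested passed in G1 or G5. At least 3 of the 5 erythroid markers were at 0 in every group. The part of these cells in the results below was not tested.

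Most mitotic genes were higher with mutant p53 in G3, and in G5 some of them rose while others did not pass the test or fell. Differences between TM and DM are on the log2(FPKM + 1) scale, with standard errors (SE) and adjusted p-values from limma over all 13562 genes tested, and a gene is said to have risen or fallen where that p was under 0.05. In G1, 8 of the 50 members rose and none fell, where 0.361% of all genes tested rose and 0.811% fell, and 43 members had an unadjusted p under 0.05. The median difference of the 50 was 1.16 in G1 against 0.02 over all genes, and every member lay above 0, from 0.45 (Bub3) to 1.54 (Pttg1). In 47 members both TM libraries lay above both DM libraries, an order found in 26.4% of all genes. In G3, 36 members rose and none fell, where 18.0% of all genes rose and 13.9% fell. The median of the members was 1.30 against 0.01 over all genes, and in 49 of them the TM libraries lay above all DM libraries (31.6% of all genes). In G5, 29 rose and 3 fell, where 30.3% of all genes rose and 28.4% fell. Their median was 0.95 against 0.02, the range ran from −1.36 (Mki67) to 2.46 (Spc24), and 36 members lay above 0. In 29 members all TM libraries lay above all DM libraries, against 29.6% of all genes.

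The number of G1 calls depended on single libraries. None was left without G1DM replicate 1, G1TM replicate 1 or G1TM replicate 2, 22 members rose without G1DM replicate 2 and 15 without G5DM replicate 1, and leaving out G3DM replicate 1 or 2, or G3TM replicate 2 or 3, left 5. In a fit of the G1 libraries alone none was called. Where a G1 arm was left with 1 library, that library was assumed to vary like the other groups. The median difference of the members in G1, 1.16, was 0.77 without G1DM replicate 1, 1.54 without G1DM replicate 2, and 1.11 and 1.14 without G1TM replicate 1 and 2. Scaling each library to the same FPKM total moved the median of all genes in G5 from 0.02 to −0.42 and changed the G5 split to 24 higher and 9 lower. Without G5DM replicate 1 the G5 split was 29 and 10, without G3TM replicate 1 it was 29 and 6, and without either G1DM library 30 and 5. Without G5DM replicate 2 or 3, or G5TM replicate 1 or 2, no member fell in G5, and without G5TM replicate 3 only 1 did. No member fell in a fit of the G5 libraries alone, where 28 rose, or without the filter on low values, where 29 rose.

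**Figure D1:**
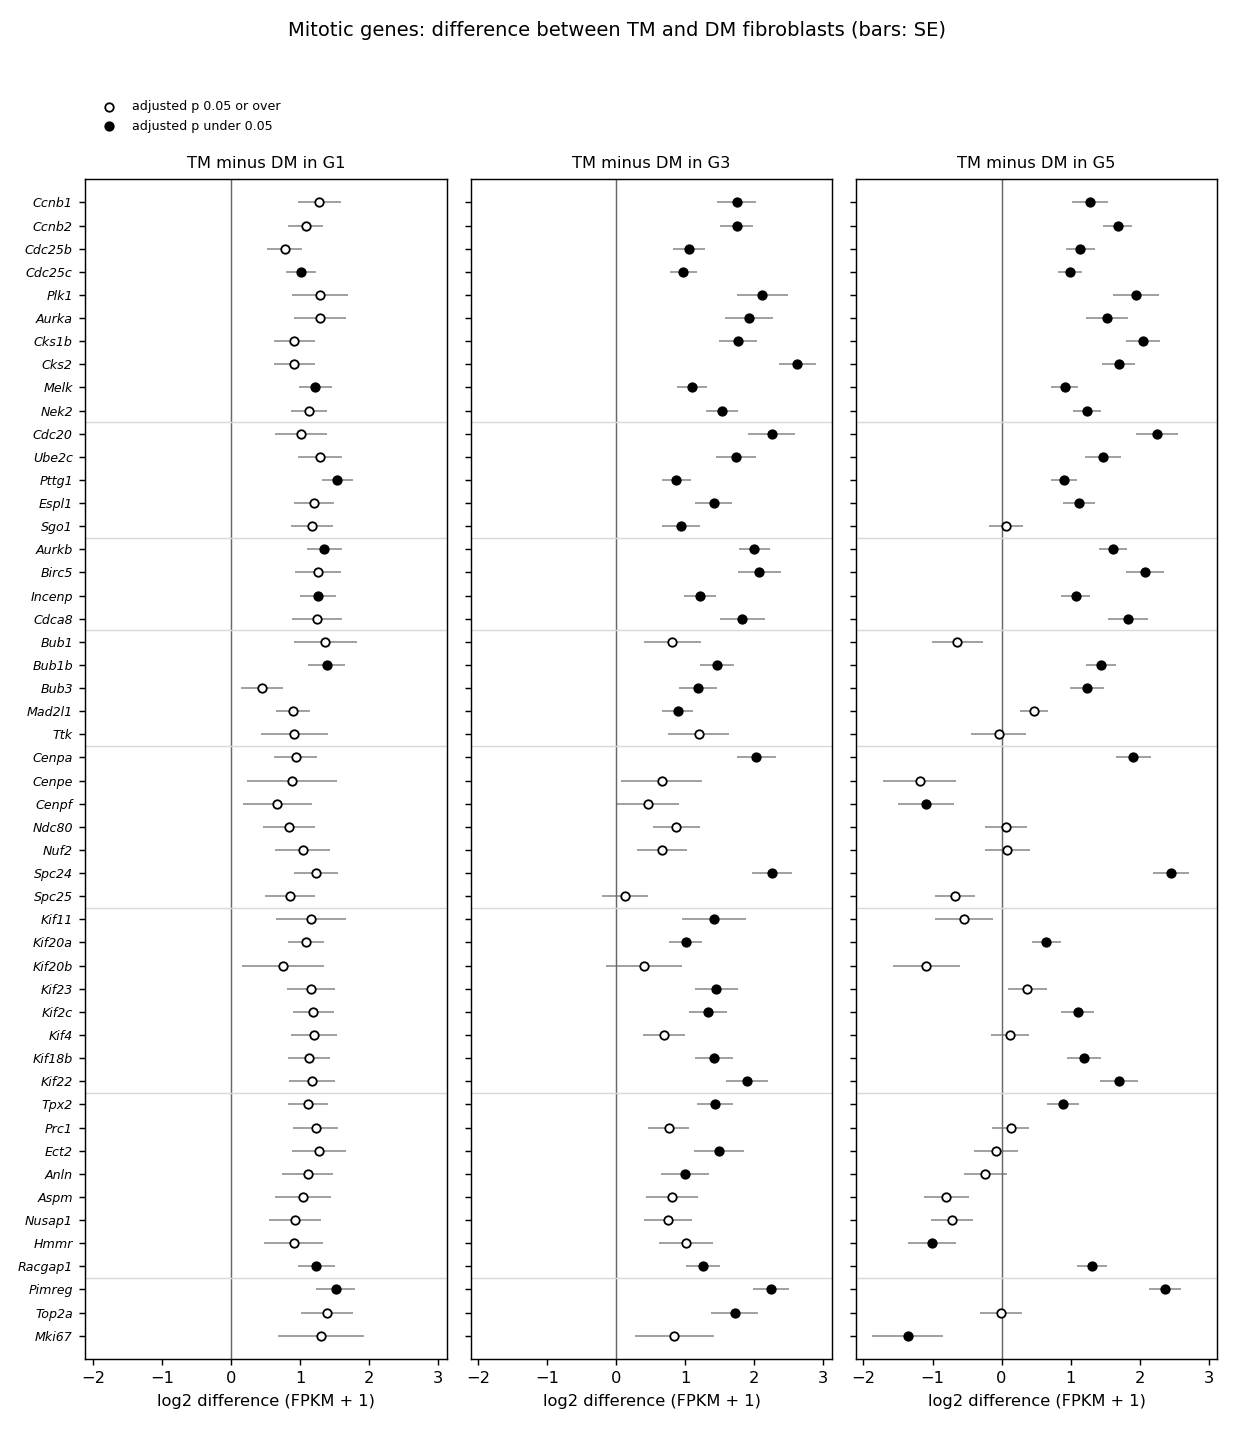
Difference between TM and DM for each of the 50 members in G1, G3 and G5 (x axis, log2 of FPKM + 1; bars, SE), in the order in which the roles are described, with grey lines between roles. Filled points have an adjusted p under 0.05: 8 in G1, 36 in G3 and 32 in G5, and in G5 the points spread from −1.36 to 2.46 where in G1 they span 0.45 to 1.54.

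All 10 genes of mitotic entry rose in G3 and all 10 in G5, with medians of 1.74 and 1.40. In G1 their median was 1.11 and 2 of them rose. Of all genes tested, 0.361% rose in G1, 18.0% in G3 and 30.3% in G5. Plk1 (ENSMUSG00000030867, chromosome 7, 122159439 to 122169873), the polo-like kinase that acts from centrosomes to kinetochores, measured 17.6 and 34.4 FPKM in G1, 37.2 and 26.1 in G3, and 35.0, 19.0 and 30.7 in G5 in DM cells. In TM cells Plk1 measured 53.4 and 71.7 FPKM in G1, 100.04, 151 and 177 in G3, and 104, 80.2 and 155 in G5. All TM libraries lay above all DM libraries in each generation, and the lowest G3TM value was above the highest of G1TM. The differences of Plk1 were 1.29 ± 0.41 in G1, 2.12 ± 0.37 in G3 and 1.95 ± 0.33 in G5 (SE; adjusted p = 0.16, 0.0013 and 0.00041). Ccnb1 (ENSMUSG00000041431, chromosome 13, 100778650 to 100786570), the B-type cyclin that activates Cdk1, measured 9.18 and 19.4 FPKM in G1, 11.7 and 10.3 in G3, and 12.8, 10.1 and 16.7 in G5 in DM cells. TM cells had 34.1 and 33.9 FPKM in G1, 40.5, 38.7 and 38.2 in G3, and 36.2, 24.5 and 40.5 in G5. TM libraries lay close to each other across generations, and the DM libraries lay below them throughout. The difference was 1.28 ± 0.31 in G1, 1.74 ± 0.29 in G3 and 1.28 ± 0.26 in G5 (SE; adjusted p = 0.066, 0.00091 and 0.0012). Its partner Ccnb2 rose by 1.74 ± 0.24 in G3 and 1.68 ± 0.21 in G5. The pseudogene Ccnb1-ps lay at 0.199 to 2.27 FPKM and Ccnb2-ps at 0.0451 to 0.503, and how reads were split between gene and copy is not given in the sources used here.

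Cks2 (ENSMUSG00000062248, chromosome 13, 51645232 to 51650660), a small Cdk-binding protein and with 692 bases the shortest member, had the largest difference of all members in G3. In DM cells Cks2 measured 12.5 and 25.4 FPKM in G1, 13.9 and 11.2 in G3, and 24.3, 20.6 and 27.2 in G5. TM cells held 35.1 and 34.4 FPKM in G1, 79.5, 80.3 and 87.1 in G3, and 96.2, 61.3 and 85.6 in G5, and the 2 genotypes did not overlap in any generation. The difference was 0.92 ± 0.29 in G1, 2.62 ± 0.27 in G3 and 1.70 ± 0.24 in G5 (SE; adjusted p = 0.16, 3.7e-05 and 0.00013). It was the only member whose difference was larger in G3 than in G1 by the test of that change (1.70 ± 0.40, adjusted p = 0.042; 1 of 50 members, against 1.53% of all genes larger and 0.885% smaller). That call was kept under 10 of 26 alternatives and lost, for example, without G1DM replicate 2, G1TM replicate 1 or 2, G3DM replicate 1 or 2, G3TM replicate 2 or 3, G5DM replicate 2 or G5TM replicate 3. Its paralog Cks1b rose by 1.76 ± 0.27 in G3 and 2.05 ± 0.25 in G5. Of the others, the spindle pole kinase Aurka rose by 1.92 ± 0.34 and 1.52 ± 0.31, and the centrosome kinase Nek2 by 1.53 ± 0.23 and 1.24 ± 0.21. Melk, a kinase abundant in dividing cells, rose in all 3 generations (1.22 ± 0.24 in G1, 1.10 ± 0.22 in G3 and 0.92 ± 0.20 in G5), as did Cdc25c (1.01 ± 0.22 in G1, 0.97 ± 0.20 in G3 and 0.99 ± 0.18 in G5), a phosphatase that activates Cdk1. The related phosphatase Cdc25b (ENSMUSG00000027330, chromosome 2, 131186949 to 131198497) had among the smallest differences in G1. It measured 9.02 and 9.32 FPKM in G1, 10.4 and 8.95 in G3, and 9.65, 5.14 and 7.73 in G5 in DM cells. TM cells had 15.7 and 17.2 FPKM in G1, 18.2, 22.7 and 22.7 in G3, and 16.8, 14.1 and 21.8 in G5, without overlap, and the difference was 0.78 ± 0.26 in G1, 1.05 ± 0.23 in G3 and 1.14 ± 0.21 in G5 (SE; adjusted p = 0.18, 0.0049 and 0.00067). In G3 it did not pass without G3DM replicate 2 (adjusted p = 0.064). In G5 neither Cdc25c (0.053) nor Melk (0.13) passed when libraries were scaled to the same FPKM total.

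**Figure D2:**
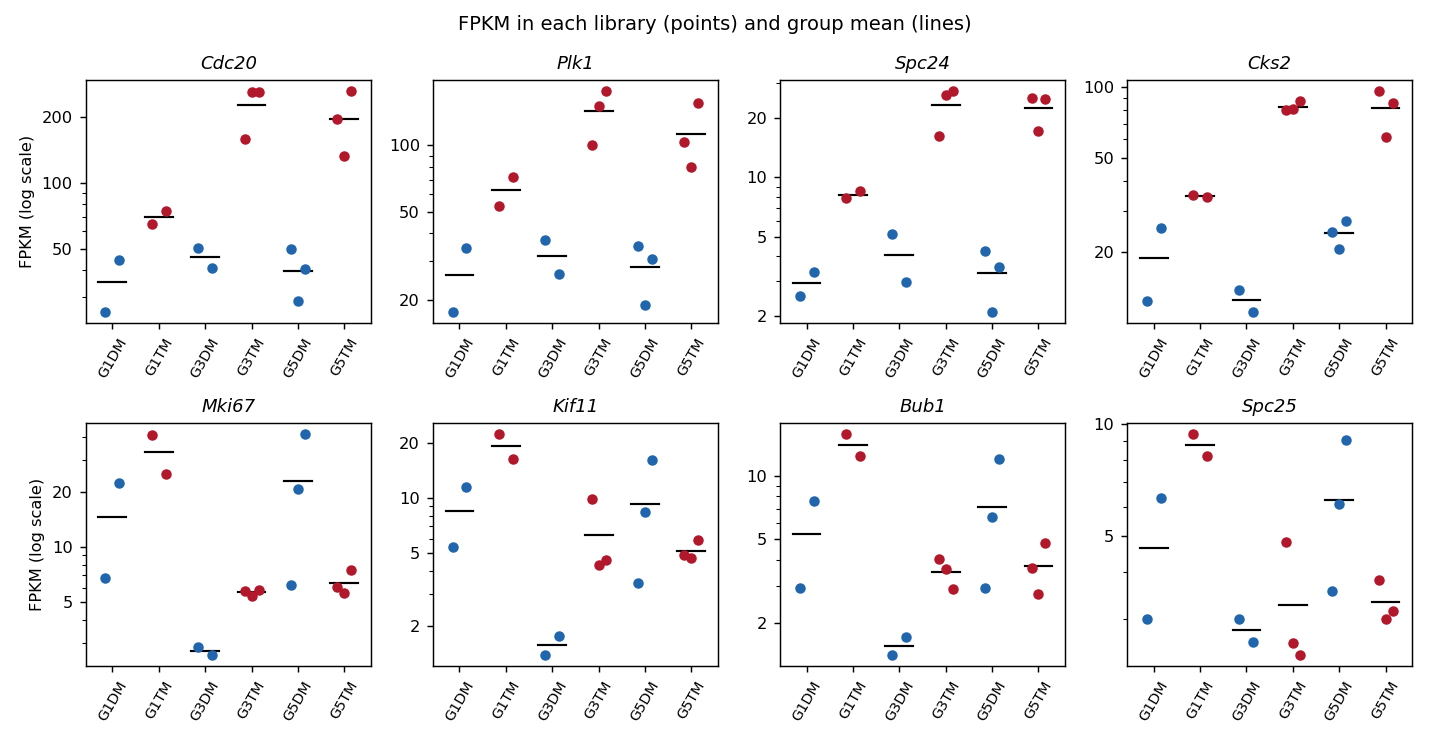
FPKM (log axis) of 8 members in each library (points; DM blue, TM red) with group means (lines). In the upper row (Cdc20, Plk1, Spc24 and Cks2) G3TM and G5TM lie above every other group, and in the lower row (Mki67, Kif11, Bub1 and Spc25) G1TM lies above both and the G5DM libraries spread widely.

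Among the genes of the anaphase-promoting complex and its targets, all 5 rose in G3 and 4 of 5 in G5. The shares over all genes were 18.0% and 30.3%. Cdc20 (ENSMUSG00000006398, chromosome 4, 118432901 to 118437352), the coactivator that brings substrates to the complex, measured 25.7 and 44.6 FPKM in G1, 50.4 and 40.8 in G3, and 49.7, 28.9 and 40.5 in G5 in DM cells. In TM cells Cdc20 measured 65.0 and 74.1 FPKM in G1, 158, 258 and 260.4 in G3, and 195, 132 and 263 in G5, and every G3TM and G5TM library lay above every G1TM library. The differences were 1.01 ± 0.37 in G1, 2.25 ± 0.34 in G3 and 2.26 ± 0.31 in G5 (SE; adjusted p = 0.24, 0.00053 and 0.0001). Pttg1 (ENSMUSG00000020415, chromosome 11, 43420250 to 43426251), which encodes securin, the inhibitor of separase, had the largest difference of all members in G1. It measured 4.01 and 4.39 FPKM in G1, 6.65 and 6.47 in G3, and 6.54, 4.32 and 5.40 in G5 in DM cells. TM cells had 13.46 and 14.9 FPKM in G1, 16.9, 10.5 and 11.9 in G3, and 12.6, 9.84 and 10.4 in G5, again without overlap within a generation. The difference was 1.54 ± 0.23 in G1, 0.87 ± 0.21 in G3 and 0.90 ± 0.19 in G5 (SE; adjusted p = 0.0053, 0.0072 and 0.0014), so that for securin G1 showed the largest value and for Cdc20 the smallest. The change of the difference from G1 to G3 or from G1 to G5 passed the test for neither gene. Ube2c, the ubiquitin-conjugating enzyme of the complex, rose by 1.73 ± 0.29 and 1.47 ± 0.26 in G3 and G5. Of its exon bases, 22.8% overlap Tnnc2 on the other strand. Espl1, which encodes separase itself, rose by 1.41 ± 0.26 and 1.12 ± 0.23 in G3 and G5. Sgo1, the protector of centromeric cohesin, rose in G3 (0.94 ± 0.28) and was 0.06 ± 0.25 in G5 (adjusted p = 0.84). In G5 it passed with the GC trend, or the GC and length trends, of each library removed (adjusted p down to 0.001 over the alternatives). Without G3DM replicate 1, G3DM replicate 2 or G3TM replicate 1 the G3 rise of Sgo1 no longer passed (adjusted p up to 0.19 over the alternatives), and that of Pttg1 was lost without G3DM replicate 2 (up to 0.13). In G5 Pttg1 did not pass with library total scaling or with the length trend of each library removed (up to 0.15), nor Espl1 with the GC trend removed (0.060).

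The chromosomal passenger complex corrects faulty attachments and later directs cytokinesis. All 4 of its subunits rose in G3 and in G5, where 18.0% and 30.3% of all genes rose, with medians of 1.91 and 1.72. Aurkb (ENSMUSG00000020897, chromosome 11, 69045647 to 69051664), its kinase, measured 5.83 and 8.57 FPKM in G1, 8.58 and 6.71 in G3, and 10.2, 6.71 and 10.2 in G5 in DM cells. TM cells held 19.2 and 20.1 FPKM in G1, 28.8, 36.7 and 35.4 in G3, and 31.7, 23.6 and 33.4 in G5, above all DM libraries in each generation. Aurkb rose by 1.35 ± 0.25 in G1, 2.00 ± 0.23 in G3 and 1.62 ± 0.21 in G5 (SE; adjusted p = 0.023, 9.2e-05 and 7.2e-05). Birc5 (ENSMUSG00000017716, chromosome 11, 117849251 to 117855743), which encodes survivin, measured 6.28 and 12.2 FPKM in G1, 10.3 and 8.17 in G3, and 9.67, 6.71 and 10.9 in G5 in DM cells. TM cells had 21.6 and 23.3 FPKM in G1, 36.6, 39.6 and 51.0 in G3, and 52.1, 27.9 and 47.2 in G5. The 2 genotypes did not overlap, and G5TM replicate 2 was the lowest of the late TM libraries, as it was for Cdc20 and Plk1. Its difference was 1.26 ± 0.33 in G1, 2.08 ± 0.31 in G3 and 2.08 ± 0.27 in G5 (SE; adjusted p = 0.087, 0.00043 and 8.5e-05). Incenp, the scaffold, rose by 1.26 ± 0.26 in G1, 1.22 ± 0.24 in G3 and 1.07 ± 0.21 in G5, and Cdca8 (borealin) by 1.83 ± 0.33 in G3 and 1.83 ± 0.29 in G5. The G5 call of Incenp was lost with the GC and length trends removed (adjusted p = 0.12).

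The spindle checkpoint divided between close relatives. Bub1b (ENSMUSG00000040084, chromosome 2, 118598211 to 118641591), which encodes the inhibitor BubR1, measured 10.4 and 14.6 FPKM in G1, 13.7 and 11.5 in G3, and 10.4, 9.54 and 16.5 in G5 in DM cells. In TM cells Bub1b measured 32.6 and 35.3 FPKM in G1, 36.0, 33.7 and 39.3 in G3, and 29.3, 30.9 and 42.4 in G5, above all DM libraries in each generation. It rose by 1.39 ± 0.26 in G1, 1.46 ± 0.24 in G3 and 1.44 ± 0.22 in G5 (SE; adjusted p = 0.025, 0.00091 and 0.00019), nearly the same step each time. The related kinase gene Bub1 (ENSMUSG00000027379, chromosome 2, 127801122 to 127831865) measured 2.94 and 7.61 FPKM in G1, 1.40 and 1.71 in G3, and 2.94, 6.41 and 12.1 in G5 in DM cells. TM cells had 15.9 and 12.4 FPKM in G1, 4.01, 3.60 and 2.90 in G3, and 3.64, 2.73 and 4.77 in G5. In G5 the genotypes overlapped, and DM replicates 2 and 3 lay above all TM libraries. Its difference was 1.37 ± 0.45 in G1, 0.81 ± 0.41 in G3 and −0.64 ± 0.37 in G5 (SE; adjusted p = 0.18, 0.15 and 0.15). Bub3 (ENSMUSG00000066979, chromosome 7, 131560222 to 131571895), the partner of both, had the smallest difference of all members in G1, and it measured 10.4 and 12.8 FPKM in G1, 15.9 and 15.3 in G3, and 20.3, 10.9 and 12.0 in G5 in DM cells. TM cells had 15.2 and 17.0 FPKM in G1, 27.5, 40.8 and 44.0 in G3, and 37.9, 26.0 and 40.0 in G5. Both genotypes were apart in all generations, by 0.45 ± 0.30 in G1, 1.19 ± 0.28 in G3 and 1.24 ± 0.25 in G5 (SE; adjusted p = 0.65, 0.0064 and 0.0012). Mad2l1 rose in G3 (0.89 ± 0.23) and was 0.47 ± 0.20 in G5 (adjusted p = 0.061). The checkpoint kinase Ttk passed in no generation (0.92 ± 0.49 in G1, 1.19 ± 0.45 in G3 and −0.04 ± 0.40 in G5). In all, 3 of 5 rose in G3 and 2 of 5 in G5, where 18.0% and 30.3% of all genes rose. The G5 count lies near that share. Without G3DM replicate 2 neither Bub3 (adjusted p up to 0.06 over the alternatives) nor Mad2l1 (up to 0.14) passed in G3.

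Of the 7 centromere and kinetochore genes, 2 rose in G3 and in G5 (Cenpa and Spc24), and 1 fell in G5 (Cenpf). Over all genes, 18.0% rose in G3, and 30.3% rose and 28.4% fell in G5. The G5 counts of this role lie near or below those shares. Of the 4 subunits of the Ndc80 complex (Ndc80, Nuf2, Spc24 and Spc25), which form a rod that binds microtubules, only Spc24 passed the test between genotypes in G3 and in G5. Spc24 (ENSMUSG00000074476, chromosome 9, 21755442 to 21760303) measured 2.52 and 3.34 FPKM in G1, 5.19 and 2.96 in G3, and 4.26, 2.10 and 3.52 in G5 in DM cells. In TM cells Spc24 measured 7.84 and 8.50 FPKM in G1, 16.1, 26.2 and 27.4 in G3, and 25.2, 17.1 and 24.9 in G5, the late libraries above those of G1. Its difference was 1.23 ± 0.32 in G1, 2.25 ± 0.29 in G3 and 2.46 ± 0.26 in G5 (SE; adjusted p = 0.081, 0.00019 and 1.8e-05), the largest of all members in G5. Spc25 (ENSMUSG00000005233, chromosome 2, 69193895 to 69206194), its direct partner, measured 3.00 and 6.33 FPKM in G1, 2.99 and 2.60 in G3, and 3.56, 6.11 and 9.05 in G5 in DM cells. TM cells had 9.41 and 8.22 FPKM in G1, 4.82, 2.58 and 2.40 in G3, and 3.82, 2.99 and 3.16 in G5. G1TM was the highest group for Spc25, and Spc25 was the only member whose genotypes overlapped in G3. The difference of Spc25 was 0.86 ± 0.36 in G1, 0.13 ± 0.33 in G3 and −0.68 ± 0.29 in G5 (SE; adjusted p = 0.32, 0.81 and 0.063). Nuf2 (ENSMUSG00000026683, chromosome 1, 169497934 to 169531464) measured 3.08 and 6.24 FPKM in G1, 2.41 and 2.31 in G3, and 2.72, 4.15 and 7.01 in G5 in DM cells. TM cells had 10.9 and 9.46 FPKM in G1, 7.78, 2.95 and 3.29 in G3, and 5.53, 4.41 and 4.19 in G5. It was high in G1TM and in G3TM replicate 1, and differed by 1.04 ± 0.40 in G1, 0.66 ± 0.36 in G3 and 0.08 ± 0.32 in G5 (SE), none past the threshold. Ndc80 (ENSMUSG00000024056, chromosome 17, 71496100 to 71526857) measured 1.56 and 2.96 FPKM in G1, 0.811 and 0.702 in G3, and 0.853, 2.38 and 3.92 in G5 in DM cells. TM cells had 5.59 and 3.94 FPKM in G1, 3.25, 1.83 and 1.73 in G3, and 2.61, 1.98 and 2.28 in G5, and differed by 0.84 ± 0.37 in G1, 0.87 ± 0.34 in G3 and 0.07 ± 0.30 in G5 (SE), none past the threshold.

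Cenpa, the histone H3 variant that marks centromeres, rose by 2.03 ± 0.29 in G3 and 1.91 ± 0.25 in G5. Cenpe (ENSMUSG00000045328, chromosome 3, 135212537 to 135273611), a kinetochore kinesin, measured 1.30 and 6.80 FPKM in G1, 0.823 and 0.829 in G3, and 1.77, 8.21 and 15.0 in G5 in DM cells. In TM cells Cenpe measured 8.42 and 5.47 FPKM in G1, 1.85, 1.84 and 1.96 in G3, and 2.25, 1.58 and 3.18 in G5. G5DM replicate 1 was low, near the TM libraries, while replicate 3 was the highest of all 15. The difference was 0.88 ± 0.65 in G1, 0.66 ± 0.59 in G3 and −1.18 ± 0.53 in G5 (SE; adjusted p = 0.70, 0.42 and 0.069). Cenpf (ENSMUSG00000026605, chromosome 1, 189640606 to 189688086), with 15433 bases the longest member, measured 0.583 and 2.95 FPKM in G1, 0.287 and 0.245 in G3, and 0.858, 3.12 and 6.37 in G5 in DM cells. TM cells had 3.60 and 2.43 FPKM in G1, 0.837, 0.651 and 0.738 in G3, and 0.639, 0.689 and 1.09 in G5. Its difference was 0.67 ± 0.50 in G1, 0.46 ± 0.46 in G3 and −1.09 ± 0.41 in G5 (SE; adjusted p = 0.71, 0.47 and 0.034), a fall in G5. That fall was lost without G5DM replicate 2 or 3 or without any single G5TM library (adjusted p up to 0.79 over the alternatives), and after the GC and length trends of each library were removed the difference was 0.11.

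Of the 8 kinesins, 6 rose in G3 and 4 in G5 (Kif2c, Kif18b, Kif20a and Kif22), where 18.0% and 30.3% of all genes rose. Kif11 (ENSMUSG00000012443, chromosome 19, 37376403 to 37421859), the motor that pushes spindle poles apart, measured 5.42 and 11.5 FPKM in G1, 1.38 and 1.75 in G3, and 3.44, 8.40 and 16.0 in G5 in DM cells. TM cells held 22.4 and 16.2 FPKM in G1, 9.83, 4.33 and 4.59 in G3, and 4.86, 4.69 and 5.89 in G5. The lowest values were those of G3DM, and in G5 the TM libraries lay inside the range of DM. The difference was 1.16 ± 0.51 in G1, 1.42 ± 0.46 in G3 and −0.54 ± 0.41 in G5 (SE; adjusted p = 0.35, 0.033 and 0.27), and the G3 rise was lost without G3DM replicate 1, G3DM replicate 2 or G3TM replicate 1 (adjusted p up to 0.15). Kif20b (ENSMUSG00000024795, chromosome 19, 34922361 to 34975745) measured 0.693 and 3.41 FPKM in G1, 0.442 and 0.476 in G3, and 0.765, 5.02 and 8.86 in G5 in DM cells. TM cells had 4.35 and 2.95 FPKM in G1, 0.858, 1.04 and 0.880 in G3, and 0.942, 1.05 and 1.72 in G5, and passed in no generation (0.75 ± 0.60 in G1, 0.40 ± 0.55 in G3 and −1.09 ± 0.49 in G5, SE). Its paralog Kif20a, a motor of the central spindle, rose by 1.01 ± 0.24 in G3 and 0.65 ± 0.21 in G5, and 29.3% of its exon bases overlap Cdc23 on the other strand. The G3 call of Kif20a was lost without G3DM replicate 2 (adjusted p up to 0.092), and its G5 call without G5DM replicate 2 or G5TM replicate 3 (up to 0.76). Kif22, a motor on chromosome arms, rose by 1.90 ± 0.30 and 1.70 ± 0.27, the microtubule depolymerase Kif2c by 1.33 ± 0.27 and 1.10 ± 0.24, and Kif18b by 1.42 ± 0.27 and 1.19 ± 0.24. Kif23, the motor of centralspindlin, rose in G3 (1.45 ± 0.31) and was 0.37 ± 0.28 in G5, and its G3 call was lost without G3DM replicate 2 (adjusted p = 0.052). The X-linked Kif4 did not pass (1.2 ± 0.34 in G1, 0.69 ± 0.31 in G3 and 0.12 ± 0.27 in G5).

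Of the 8 genes of spindle assembly, midzone and cytokinesis, 4 rose in G3, and in G5 2 rose and 1 fell. Over all genes, 18.0% rose in G3, and 30.3% rose and 28.4% fell in G5. The G5 counts of this role lie near or below those shares. Tpx2 (ENSMUSG00000027469, chromosome 2, 152847964 to 152895321), the spindle assembly factor that activates Aurka, measured 16.4 and 30.2 FPKM in G1, 18.0 and 17.5 in G3, and 20.4, 19.5 and 30.1 in G5 in DM cells. In TM cells Tpx2 measured 49.999 and 49.4 FPKM in G1, 53.7, 46.1 and 49.4 in G3, and 46.9, 33.9 and 51.1 in G5, without overlap in any generation. It differed by 1.12 ± 0.29 in G1, 1.43 ± 0.26 in G3 and 0.89 ± 0.24 in G5 (SE; adjusted p = 0.078, 0.0017 and 0.0061), and its G5 rise was lost with quantile normalization or library total scaling (up to 0.31). Racgap1, the partner of Kif23 in centralspindlin, rose in all 3 generations (1.24 ± 0.27 in G1, 1.26 ± 0.25 in G3 and 1.31 ± 0.22 in G5). Ect2, the exchange factor that centralspindlin recruits to start furrowing, rose in G3 (1.49 ± 0.36) but was −0.08 ± 0.32 in G5. Anln (ENSMUSG00000036777, chromosome 9, 22332012 to 22389188), which encodes anillin of the contractile ring, measured 11.4 and 28.8 FPKM in G1, 8.92 and 10.1 in G3, and 14.5, 18.4 and 27.0 in G5 in DM cells. TM cells had 43.2 and 37.9 FPKM in G1, 25.6, 15.8 and 19.5 in G3, and 16.7, 13.3 and 19.6 in G5. In G5 the genotypes overlapped, and the difference was 1.11 ± 0.37 in G1, 1.00 ± 0.34 in G3 and −0.23 ± 0.31 in G5 (SE; adjusted p = 0.19, 0.04 and 0.53). Anillin's G3 rise was lost without any single G3DM or G1TM library, and without G3TM replicate 1 or 3, G5DM replicate 2 or G5TM replicate 1 (adjusted p up to 0.26), and that of Ect2 without G3DM replicate 2 (up to 0.069). Aspm (ENSMUSG00000033952, chromosome 1, 139454772 to 139494091), a spindle pole protein, measured 2.13 and 3.68 FPKM in G1, 0.450 and 0.398 in G3, and 1.16, 2.98 and 5.31 in G5 in DM cells. TM cells had 8.37 and 5.67 FPKM in G1, 2.51, 1.14 and 1.06 in G3, and 0.967, 1.12 and 1.48 in G5. G1TM was high and the late TM libraries except G3TM replicate 1 lay near 1, so that the difference was 1.05 ± 0.41 in G1, 0.81 ± 0.37 in G3 and −0.80 ± 0.33 in G5 (SE; adjusted p = 0.27, 0.11 and 0.052). Hmmr, a microtubule-binding protein of the spindle, fell in G5 (−1.01 ± 0.35, adjusted p = 0.024), from 11.3 ± 6.17 FPKM in DM to 4.65 ± 1.23 in TM (SD, n = 3 each). That fall was lost without G5DM replicate 2 or 3 or G5TM replicate 1 or 2 (adjusted p up to 0.48). Prc1, which bundles midzone microtubules, and Nusap1 passed in no generation, with differences in G5 of 0.13 ± 0.27 and −0.72 ± 0.31.

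Pimreg, Top2a and Mki67 complete the set. Pimreg (ENSMUSG00000020808, chromosome 11, 72042032 to 72047370) measured 7.57 and 10.7 FPKM in G1, 14.0 and 10.3 in G3, and 13.45, 7.61 and 11.9 in G5 in DM cells. In TM cells Pimreg measured 26.0 and 29.4 FPKM in G1, 47.3, 71.5 and 65.9 in G3, and 68.9, 50.5 and 60.6 in G5, and it rose in all 3 generations, by 1.52 ± 0.29 in G1, 2.24 ± 0.26 in G3 and 2.37 ± 0.24 in G5 (SE; adjusted p = 0.025, 0.0001 and 1.2e-05). Top2a (ENSMUSG00000020914, chromosome 11, 98992943 to 99024189), the topoisomerase that untangles sister chromatids, measured 13.3 and 23.6 FPKM in G1, 6.26 and 6.34 in G3, and 12.6, 17.7 and 31.9 in G5 in DM cells. TM cells had 51.5 and 45.3 FPKM in G1, 31.2, 19.6 and 19.96 in G3, and 19.8, 15.6 and 22.5 in G5. G1TM was the highest group and G3DM the lowest, and the difference was 1.39 ± 0.37 in G1, 1.72 ± 0.34 in G3 and −0.01 ± 0.30 in G5 (SE; adjusted p = 0.09, 0.0027 and 0.98). Mki67 (ENSMUSG00000031004, chromosome 7, 135689784 to 135716361), the widely used proliferation marker Ki-67, measured 6.73 and 22.2 FPKM in G1, 2.85 and 2.57 in G3, and 6.24, 20.8 and 41.3 in G5 in DM cells. TM cells had 40.9 and 25.1 FPKM in G1, 5.75, 5.37 and 5.85 in G3, and 6.02, 5.60 and 7.51 in G5. The late TM libraries lay close together, above G3DM and below both G1TM libraries, and G5DM ran from near them (replicate 1) to the highest value of all 15 (replicate 3). The difference was 1.30 ± 0.62 in G1, 0.84 ± 0.57 in G3 and −1.36 ± 0.51 in G5 (SE; adjusted p = 0.42, 0.28 and 0.035), a fall in G5, where Ccnb1, Ccnb2, Plk1 and Cdc20 rose. The fall was lost without G5DM replicate 2 or 3 or any single G5TM library, and the adjusted p reached 0.26 over the alternatives. It was also lost in a fit of the G5 libraries alone and without the filter on low values.

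The change of the genotype difference between generations was tested as well. From G1 to G5 it shrank or turned in 6 members and grew in none, against 8.33% of all genes smaller and 11.5% larger, so that the number that shrank lies near the share over all genes. The 6 were Mki67 (−2.66 ± 0.81, adjusted p = 0.037), Bub1 (−2.01 ± 0.59, 0.032), Hmmr (−1.92 ± 0.55, 0.031), Aspm (−1.85 ± 0.52, 0.030), Nusap1 (−1.65 ± 0.48, 0.034) and Spc25 (−1.53 ± 0.46, 0.037). Without G5DM replicate 1, 18 members shrank and 5 grew, and none changed without G1DM replicate 1, G1TM replicate 1 or 2, G5DM replicate 2 or 3, or G5TM replicate 1. Without G1DM replicate 2 the number was 12, without G3TM replicate 1 it was 9 with 2 that grew, and without G5TM replicate 3 it was 3. Without G3DM replicate 1 or 2 it was 4, and without G5TM replicate 2 it was 2 with 4 that grew. From G3 to G5 none of the 50 changed in the limma test (14 at an unadjusted p under 0.05), against 0.214% of all genes larger and 0.0221% smaller, and 15 shrank without G5DM replicate 1.

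Gene length in the table ran from 692 bases (Cks2) to 15433 (Cenpf) over the members, with a median of 4439.5, and the 25 shorter members were set beside the 25 longer ones. In G1 the medians of the difference between TM and DM were 1.22 and 1.12, and 7 of the shorter and 1 of the longer members rose. In G3 they were 1.46 and 1.19, and 22 of the shorter and 14 of the longer members rose. In G5 they were 1.28 and 0.08: 21 of the shorter members rose and none fell, while 8 of the longer rose and 3 fell. Of all genes tested, 0.361% rose in G1, 18.0% in G3 and 30.3% in G5, and 0.811%, 13.9% and 28.4% fell. Shares by length class were not counted. Spearman's rank correlation between length and difference over the 50 members was −0.21 in G1, −0.51 in G3 and −0.61 in G5. Over all 13562 genes tested it was 0.02, −0.27 and −0.35, and the medians of genes shorter and longer than the same length were 0.34 and −0.34 in G5. These values run across genes of the same libraries, which are not independent replicates, and they are given as a description. In G1 the sign depended on single libraries, with 0.09 without G1DM replicate 2 and 0.15 without G1TM replicate 2. Each of the 3 G5TM libraries set alone against the mean of the G5DM libraries gave the same sign, from −0.65 to −0.59, and the G3TM libraries from −0.52 to −0.30. With the length of the coding sequence in place of gene length, the rank correlation was −0.47 in G3 and −0.66 in G5. Removing each library's trend with length over all genes before the fit left the rank correlation at −0.20 in G3 and −0.36 in G5, and with a pseudocount of 0.1 or with voom on recovered reads the G3 value was −0.35 and −0.29.

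**Figure D3:**
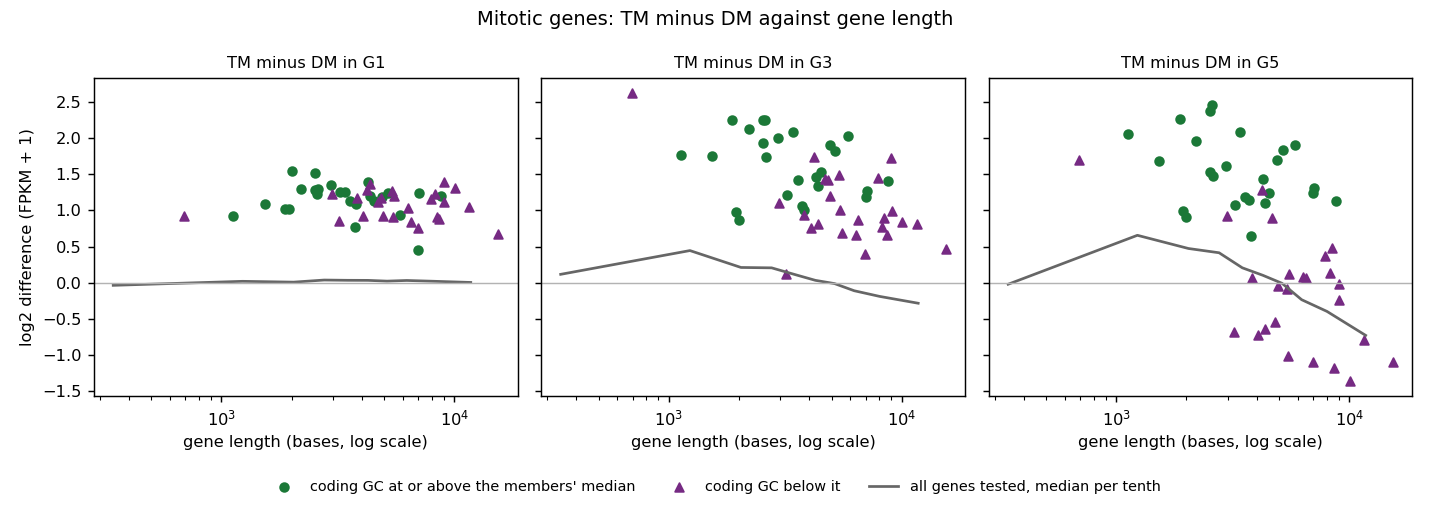
Difference between TM and DM (y axis, log2 of FPKM + 1) against gene length (x axis, bases, log scale) for the 50 members in G1, G3 and G5. Circles are the 25 members of higher and triangles the 25 of lower coding GC content, and the grey line joins the medians of all genes tested in 10 bins of length; the members' rank correlation is −0.21 in G1, −0.51 in G3 and −0.61 in G5.

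Base composition divided the members more sharply than length did in G3 and G5, by the counts. The share of G and C in the coding sequence, added after the data were seen, ran from 39.1% (Spc25) to 60.4% (Spc24), with a median of 48.5%, and was lower in longer members (rank correlation between length and GC −0.43). In G1, 7 members of higher and 1 of lower GC rose. All 25 members of higher GC rose in G3 and all 25 in G5. Of all genes tested, 0.361% rose in G1, 18.0% in G3 and 30.3% in G5, where 28.4% fell. Of the 25 of lower GC, 11 rose in G3, and in G5 4 rose (Ccnb1, Cks2, Melk and Tpx2) and 3 fell. In G5 the medians were 1.47 and −0.04, and in G1 they were 1.2 and 1.11. The rank correlation between GC and difference was 0.35 in G1, 0.67 in G3 and 0.83 in G5, against −0.13, 0.23 and 0.50 over 11636 coding genes tested. The G1 value ran from −0.12 without G1TM replicate 2 to 0.59 without G1TM replicate 1. The G3 value was 0.49 with a pseudocount of 0.1 and 0.42 with voom on recovered reads. Set alone against the mean of the G3DM libraries, G3TM replicates 1, 2 and 3 gave 0.27, 0.73 and 0.75. Over all coding genes, those below the members' median GC had a median difference of −0.64 in G5 and those above it 0.24. In G3 these medians were −0.12 and 0.08. The share of all genes called within a class of GC was not counted.

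Members were also set in 4 classes by both properties. The 7 long members of higher GC (Nek2, Espl1, Bub3, Cenpa, Cdca8, Kif22 and Racgap1) all rose in G5, with a median of 1.31 and a range of 1.12 to 1.91. The 7 short members of lower GC had a median of 0.06, and 3 of them rose. The 18 short members of higher GC had a median of 1.5 and all rose. The 18 long members of lower GC had −0.06, with 1 that rose and 3 that fell. Of all genes tested, 30.3% rose and 28.4% fell in G5, and shares within the 4 classes were not counted. Within the members of lower and of higher GC, the rank correlation with length in G5 was −0.43 and −0.27. Within the shorter and the longer members, the rank correlation with GC was 0.66 and 0.77. Espl1, with 8749 bases and a GC of 56.4%, rose in G5 (1.12 ± 0.23), while Spc25 with 3188 bases and 39.1% was −0.68 ± 0.29.

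**Figure D4:**
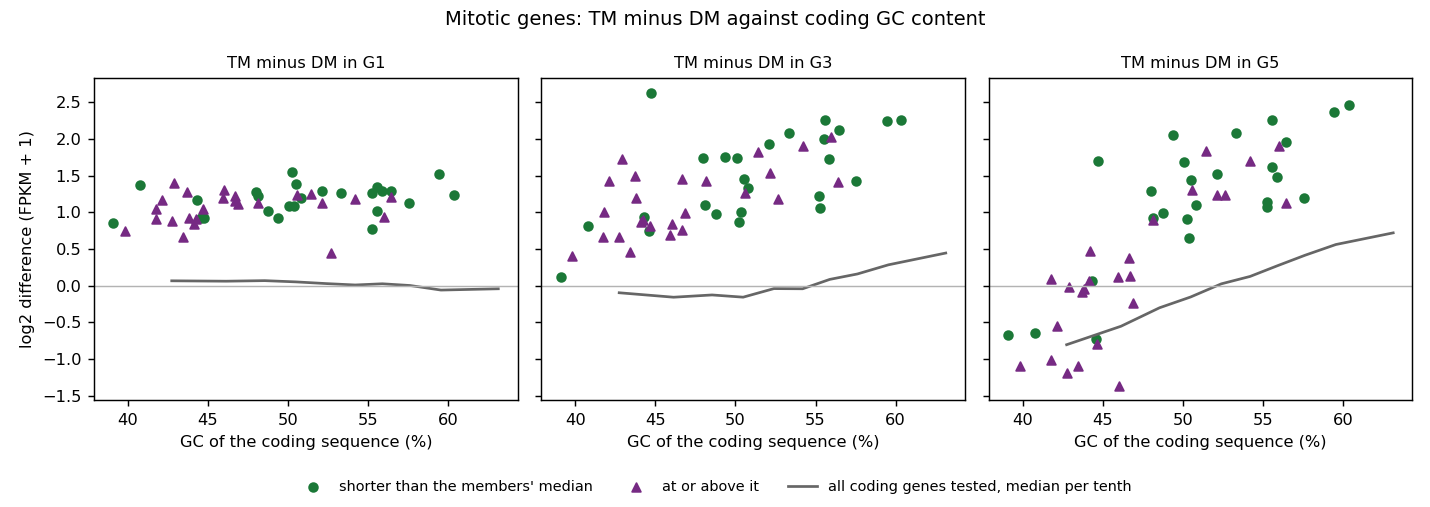
The same differences against the GC content of the coding sequence (x axis, %), with circles for the 25 shorter and triangles for the 25 longer members and a grey line through the medians of all coding genes tested in 10 bins of GC. In G5 the members climb with GC with a rank correlation of 0.83, and in G1 the rank correlation is 0.35.

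The first 120 coding bases of 4 partners, from GENCODE M21 transcripts and with G and C in capitals, make the difference in composition visible. Spc24 and Spc25 are paired subunits of the Ndc80 complex, and Bub1b and Bub1 are related checkpoint proteins of nearly equal length.
Spc24: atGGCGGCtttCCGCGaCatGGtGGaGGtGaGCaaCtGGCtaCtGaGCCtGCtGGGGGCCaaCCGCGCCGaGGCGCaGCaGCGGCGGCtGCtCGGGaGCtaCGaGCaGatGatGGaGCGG
Spc25: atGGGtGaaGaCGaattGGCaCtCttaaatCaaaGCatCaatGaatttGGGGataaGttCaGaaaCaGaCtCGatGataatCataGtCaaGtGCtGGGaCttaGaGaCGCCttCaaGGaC
Bub1b: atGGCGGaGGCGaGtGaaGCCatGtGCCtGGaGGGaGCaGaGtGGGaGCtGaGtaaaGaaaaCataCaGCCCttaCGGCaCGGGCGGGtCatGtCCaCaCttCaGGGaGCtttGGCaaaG
Bub1: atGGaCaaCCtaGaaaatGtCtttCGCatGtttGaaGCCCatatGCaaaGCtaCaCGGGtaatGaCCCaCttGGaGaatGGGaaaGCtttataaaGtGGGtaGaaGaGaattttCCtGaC
In this stretch G and C made up 68.3% of Spc24 and 41.7% of Spc25, and 57.5% of Bub1b and 41.7% of Bub1. Over the whole coding sequence the values were 60.4% and 39.1%, and 50.5% and 40.8%. The gene lengths were 2573 and 3188 bases, and 4275 and 4354. In G5 the partner richer in GC rose in each pair, Spc24 by 2.46 ± 0.26 and Bub1b by 1.44 ± 0.22, while Spc25 differed by −0.68 ± 0.29 and Bub1 by −0.64 ± 0.37. In G1, where both genotypes lie among the 9 libraries, the values of the partners were 1.23 ± 0.32 and 0.86 ± 0.36 for the first pair and 1.39 ± 0.26 and 1.37 ± 0.45 for the second. These pairs were picked after their values were seen, and the difference between partners was not tested.

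The same division was present among DM libraries, where p53 was wild type throughout. The mean log2(FPKM + 1) of the 25 members of lower GC minus that of the 25 of higher GC was −0.83 and −0.48 in the G1DM libraries, −1.87 and −1.63 in G3DM, and −1.40, −0.25 and −0.09 in G5DM. G5DM replicate 1 thus lay near G3DM and not near the other G5DM libraries. In TM cells the values were −0.55 and −0.95 in G1, −1.85, −2.56 and −2.61 in G3, and −2.31, −2.10 and −2.33 in G5. The matching contrast over all coding genes ran from −1.36 (G3TM replicate 2) to 0.04 (G5DM replicate 3). The longer minus the shorter members gave −1.42 and −1.26 in G3DM, −1.16, −0.45 and −0.34 in G5DM and −1.70, −1.61 and −1.62 in G5TM. The members of higher GC averaged 3.75, 3.23 and 3.74 in the 3 G5DM libraries, and those of lower GC 2.36, 2.97 and 3.65. Composition-related differences between libraries move with the G3 and G5 results, and their part in those results was not tested.

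**Figure D5:**
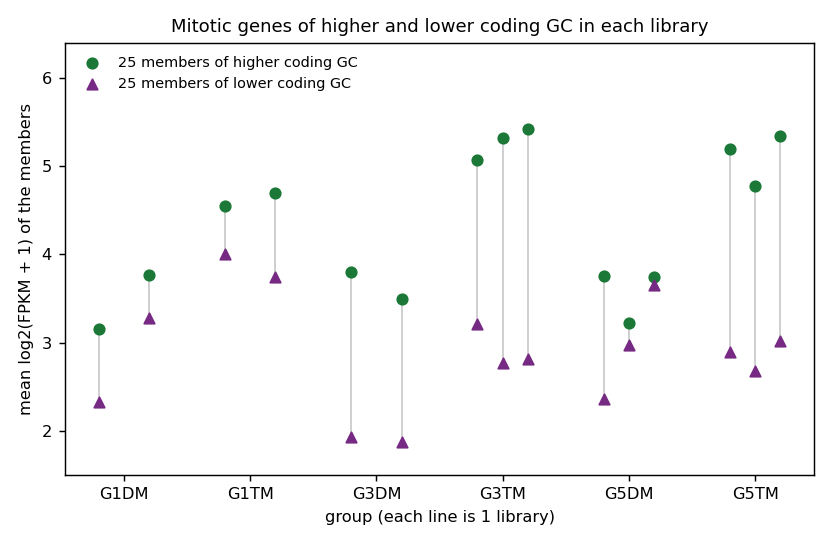
Mean log2(FPKM + 1) of the 25 members of higher coding GC (circles) and the 25 of lower coding GC (triangles) in each library, by group. The lower-GC mean minus the higher-GC mean is −2.61 to −1.85 in G3TM and G5TM, and the gap is also wide in G3DM and G5DM replicate 1, and narrowest in G5DM replicate 3 (−0.09 as lower minus higher GC).

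With each library's trend with transcript GC over all genes removed before the fit, an alternative added after the data were seen, 21 members rose in G1, 45 in G3 and 35 in G5, and none fell in any generation. In that fit 1.24%, 18.3% and 26.0% of all genes rose and 1.36%, 18.0% and 24.8% fell. Removing the GC and then the length trend gave 25, 45 and 36, again with none that fell, against 1.52%, 18.7% and 24.9% of all genes that rose and 1.71%, 17.0% and 22.5% that fell. The rank correlation with coding GC in G5 was then 0.66 and 0.59. The medians of the members under both removals were 1.11, 1.36 and 0.91 in G1, G3 and G5. Top2a, at −0.01 in G5, was 0.57 with the GC trend removed and 0.91 with both removed, and Ect2, at −0.08, was 0.72 and 0.80.

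Across generations of DM cells, few members passed the test, with 2 or 3 libraries in a group. None passed in G3 against G1 with limma (14 at an unadjusted p under 0.05; of all genes 0.184% rose and 0.0295% fell), and none in G5 against G1 (0 at an unadjusted p under 0.05; 0.00737% and 0.0516%). In G5 against G3, 6 rose and none fell, against 3.35% and 1.64% of all genes. These were Mki67 (2.34 ± 0.57), Hmmr (1.92 ± 0.39), Kif11 (1.8 ± 0.46), Nusap1 (1.5 ± 0.34), Top2a (1.47 ± 0.34) and Aspm (1.41 ± 0.37), with adjusted p from 0.027 to 0.046. Over the 50 members, 21 had every G5DM library above both G3DM libraries, an order found in 17.4% of all genes. All 6 that rose are of lower GC. None passed without G3DM replicate 1 or 2 or G5DM replicate 2 or 3, 17 rose without G5DM replicate 1, and 10 without G1DM replicate 1 or 2. The number was 3 without a G1TM library, G3TM replicate 2 or 3, or G5TM replicate 2 or 3, and 1 without G5TM replicate 1. Without G5DM replicate 1, 9 members fell in G3 against G1. The rank correlation between the difference and coding GC was 0.81 in G3 against G1 and −0.81 in G5 against G3, comparisons that share the G3DM libraries. Over 11636 coding genes tested it was 0.56 and −0.56. In G5 against G3, coding genes below the members' median GC had a median difference of 0.42 and those above it −0.21. A relation with GC was thus present over all coding genes too.

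Across generations of TM cells members passed the test in both directions, as did all genes. In G3 against G1, 13 rose and 14 fell, where 25.2% of all genes rose and 21.6% fell, and in G5 against G1, 9 rose and 15 fell, against 26.0% and 23.5%. The counts of the members lie near these shares and show nothing particular to them. Both comparisons use the G1TM libraries and span the division of the libraries. The largest rises in G3 were those of Cdc20 (1.65 ± 0.34), Spc24 (1.37 ± 0.29) and Cks1b (1.24 ± 0.27), and the largest falls those of Mki67 (−2.31 ± 0.57), Bub1 (−1.75 ± 0.41) and Aspm (−1.67 ± 0.37). The same comparison in G5 gave 1.43 ± 0.34 for Cdc20, 1.33 ± 0.29 for Spc24 and −2.17 ± 0.57 for Mki67. G1TM replicate 1 had much weight: without it 3 rose and none fell in G3, and 3 rose and 2 fell in G5. Without G1TM replicate 2 the numbers in G3 were 7 and 9, and without G3TM replicate 2 or 3 they were 7 and 8. The split also depended on scaling, with 5 rising and 24 falling in G3 and 5 and 25 in G5 when libraries were scaled to the same FPKM total, and 4 and 14, then 4 and 19, after quantile normalization. Between G3 and G5 in TM no member passed with limma (0 at an unadjusted p under 0.05), against 0.0221% of all genes that rose and 0.00737% that fell.

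Among 15 regulators taken from the DREAM and MMB complexes and the p53 axis, none rose and 1 fell in G1, 3 rose and 2 fell in G3, and 6 rose and 5 fell in G5. Of all genes, 0.361% rose and 0.811% fell in G1, 18.0% and 13.9% in G3, and 30.3% and 28.4% in G5, so the counts in G3 and G5 lie near those shares. The gene that fell in G1 was Cdkn1a, which encodes p21. It measured 111 and 116 FPKM in G1, 168 and 180.3 in G3, and 216, 131 and 86.2 in G5 in DM cells. In TM cells it measured 4.22 and 5.90 FPKM in G1, 6.13, 29.6 and 16.2 in G3, and 7.38, 8.03 and 12.8 in G5, all below the DM libraries, a difference of −4.25 ± 0.54 in G1, −3.50 ± 0.49 in G3 and −3.74 ± 0.44 in G5 (SE; adjusted p = 0.002, 0.00032 and 4e-05). Mybl2, which encodes the MYB subunit of MMB, measured 2.12 and 5.21 FPKM in G1, 4.17 and 2.87 in G3, and 5.55, 1.91 and 3.40 in G5 in DM cells. TM cells had 10.4 and 14.3 FPKM in G1, 19.0, 32.2 and 34.0 in G3, and 22.3, 10.6 and 30.9 in G5. It was higher in every TM library, by 1.59 ± 0.49 in G1, 2.67 ± 0.44 in G3 and 2.23 ± 0.40 in G5 (SE; adjusted p = 0.14, 0.00094 and 0.00056). Foxm1, which joins MMB at mitotic promoters, differed by 1.29 ± 0.29 in G1, 1.21 ± 0.26 in G3 and 1.00 ± 0.24 in G5 (SE; adjusted p = 0.051, 0.0045 and 0.0032). Rbl2, the pocket protein p130 of DREAM, differed by −0.46 ± 0.28 in G1, −1.15 ± 0.26 in G3 and −1.18 ± 0.23 in G5 (SE; adjusted p = 0.58, 0.0049 and 0.00094), and its relative Rbl1 passed in no generation. Of the shared MuvB core, Lin9 rose in G3 (0.65 ± 0.23, adjusted p = 0.046), where the G3DM libraries had 0.547 and 0.672 FPKM. Lin37 and Rbbp4 rose in G5 (1.02 ± 0.25 and 0.83 ± 0.21). Lin52 and Lin54 fell in G5 (−0.41 ± 0.16 and −0.71 ± 0.23; adjusted p = 0.044 and 0.018), with Lin52 at 0.651 to 1.83 FPKM. Tfdp2 also fell in G5 (−0.56 ± 0.22, adjusted p = 0.044). How the regulator calls depend on single libraries or on composition is not given here. E2f4 and Trp53 rose in G5 (0.85 ± 0.21 and 0.84 ± 0.29).

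For comparison, 82 other mitotic genes were counted in the same fit. In G1, 7 rose and 1 fell, in G3 40 and 1, and in G5 37 and 11, with medians of 0.78, 0.73 and 0.35, where 0.361% and 0.811%, 18.0% and 13.9%, and 30.3% and 28.4% of all genes rose and fell. Their rank correlation with length was −0.30 in G3 and −0.34 in G5, and with coding GC 0.50 and 0.71. The 3 shortest were Haus1 (1004 bases), Cenpm (1617) and Oip5 (1778), which differed in G5 by 0.87 ± 0.26, 2.15 ± 0.25 and 0.44 ± 0.20, and the 3 longest were Anapc1 (16714), Cit (16417) and Kif15 (11020), with −0.51 ± 0.13, 0.16 ± 0.19 and −0.44 ± 0.33. Haus1 and Cenpm rose and Anapc1 fell.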

How the data were processed

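PolyA RNA of 15 fibroblast libraries was sequenced, and the authors deposited 1 table of FPKM per gene. Tools listed in the submitters' processing notes are HISAT2 2.0.5, an aligner, and featureCounts 1.5.0-p3, a read counter, besides fastp, CASAVA 1.8 and DESeq2 1.20.0. The genome build and the strand setting of counting are not given in the sources used here. Gene coordinates in the table equal GENCODE M21 (GRCm38) for 98.3% of 54409 shared identifiers and for 47 of the 50 members. FPKM times gene length gave whole reads for 100% of values (tolerance 0.05). Exon bases of 13 members overlap another gene.

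Groups follow the sample labels. limma 3.58.1 (R 4.3.3) was fitted to log2(FPKM + 1) with 6 group means over the 13562 genes that reached 1 FPKM in 2 or more libraries, with variances moderated along an intensity trend, and p-values were adjusted by Benjamini-Hochberg over all of them. The pseudocount of 1 lowers the fold changes of weakly expressed genes. The procedure was tested on simulated data. The members, lists and tests were chosen with earlier results of these data known. Values in every library are given for members spread over the roles and for the 4 largest and 4 smallest differences in each generation, with Bub1 added after its values were seen. Base composition and the removal of GC trends (lowess, span 0.3) were added after the data were seen. Alternatives were another pseudocount, no filter, quantile and library total scaling, removal of length trends, limma-voom on recovered reads, separate fits, a replicate block, and each library left out in turn.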

Additional observations from a re-analysis of the deposited data

Results flagged for a closer look

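The difference between TM and DM changed between generations, by the test of that change in limma, for 7 members. Of all genes tested, the difference moved up for 1.53% from G1 to G3 and down for 8.33% from G1 to G5, and the members' counts of 1 and 6 of 50 lie near these shares. From G1 to G3 it grew for Cks2 by 1.70 on the log2 scale, with adjusted p from 0.014 to 0.20 over 26 alternatives. From G1 to G5 it changed by −2.66 for Mki67 (0.0012 to 0.16), −2.01 for Bub1 (0.0021 to 0.14), −1.92 for Hmmr (0.0030 to 0.14), −1.85 for Aspm (0.0016 to 0.14), −1.65 for Nusap1 (0.0033 to 0.14) and −1.53 for Spc25 (0.0046 to 0.16). None of the 7 calls was kept under every alternative. These 6 that shrank or turned are all of lower coding GC, and composition differed between libraries as described above; its part was not tested.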

How the results depend on the processing

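Of the calls between TM and DM, 26 of 36 in G3, 22 of 32 in G5 and 0 of 8 in G1 were kept under all 26 alternatives. Members not called were not stable either. Under some alternative, 13 of the 14 not called in G3, 15 of 18 in G5 and 26 of 42 in G1 passed. In G1 the number of members changed was 5 without the filter, 23 with quantile normalization, 14 with the length trend removed, 0 in a fit of the groups compared, 21 with the GC trend removed and 25 with both trends removed. The Cks2 change from G1 to G3 became 0 calls without the filter, with quantile normalization, library total scaling, the length trend removed, only the groups compared, and voom. For the change from G1 to G5, where 6 shrank, there were 0 calls without the filter, 10 with library total scaling (all smaller, the 6 among them), 3 with only the groups compared (1 larger and 2 smaller, 2 of the 6 among them), 3 with the GC trend removed (2 larger and 1 smaller, 1 of the 6 among them) and 0 with both removed. The 6 rises of DM from G3 to G5 became 0 without the filter, with library total scaling and with only the groups compared, and 2 with the GC trend or both trends removed. The number of calls in TM from G1 to G3 went from 27 to 16 without the filter, 13 with the GC trend removed and 11 with both removed, and from G1 to G5 it went from 24 to 13 with both removed. The cause was not tested.

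Leaving out 1 library gave 0 to 22 changed members in G1, 26 to 41 in G3 and 28 to 39 in G5. The change of the difference gave 0 to 1 (G1 to G3), 0 to 23 (G1 to G5) and 0 to 15 (G3 to G5), DM gave 0 to 9 (G1 to G3) and 0 to 17 (G3 to G5), and TM gave 3 to 34 (G1 to G3) and 5 to 29 (G1 to G5).

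The rank correlation with length in G3 was −0.35 with a pseudocount of 0.1, −0.20 with the length trend removed, −0.29 with voom and −0.23 with both trends removed, and −0.51 to −0.47 with a library left out. In G5 it was −0.57 with quantile normalization, −0.36 with the length trend removed, −0.37 with both removed and −0.66 with coding length, and −0.64 to −0.60 with a library left out.

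Some differences turned. Ccnb2 in TM, higher in G3 and G5 than in G1, was −0.0215 and −0.0588 with quantile normalization and −0.0768 in G5 with the length trend removed. Cenpf in G5 was 0.11 with both trends removed. With the GC trend and with both trends removed, Ect2 in G5 was 0.72 and 0.80 and Top2a 0.57 and 0.91. Library total scaling moved the median of all genes from 0.01 to −0.23 in TM against DM in G3, from 0.02 to −0.42 in G5, and from 0.03 to −0.39 in both TM comparisons with G1.

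Libraries of the same replicate number deviated together in some pairs and not in others (correlation 0.04 in G1, −0.34 and −0.29 in G3, and 0.30, 0.32 and −0.02 in G5), so the numbers were not taken to pair them. With the replicate block, 3 members changed in G1, 33 in G3 and 33 in G5, 0 from G3 to G5 in DM, and 22 and 23 in TM from G1 to G3 and to G5. The replicate block gave 0 calls for the change from G1 to G3 and 4 for that from G1 to G5.

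A planned comparison with protein length was not run. The lowest count of a member in any library was 40 reads, for Ttk.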
